A study of Drosophila melanogaster with 8 samples.

Results

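Ornithine decarboxylase antizyme (Oda), the ornithine decarboxylases Odc1 and Odc2, and S-adenosylmethionine decarboxylase (SamDC) were followed across 4 genotypes of Drosophila melanogaster heads. They are 4 of the 13656 genes and carry 6 of the 26309 transcripts in the authors' deposited table of TPM, a length-normalized share of reads, and they were picked by gene name. Heads came from female flies 5 days old that carried a transgene under Elav, a driver active mainly in neurons, while the whole heads sampled also hold glia, fat body, muscle and blood cells. The transgenes were PR36, a proline-arginine repeat protein, (G4C2)36, the GGGGCC repeat of C9orf72 disease, UPF1 RNAi, which targets the nonsense-mediated decay (NMD) factor Upf1, and PA36, a proline-alanine repeat that the labels name as control. Values from 2 libraries each of PR36, (G4C2)36 and PA36 and from 1 library of UPF1 RNAi were used. The labels give 40 heads per genotype in all, and nothing says whether replicates came from separate cultures, so p-values measure the spread between these libraries, which may be technical.

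Polyamines are small positively charged molecules that bind RNA and are needed for growth and translation. Ornithine decarboxylase makes putrescine from ornithine, and S-adenosylmethionine decarboxylase supplies the aminopropyl groups that turn putrescine into spermidine and spermine. Antizyme closes the loop: its mRNA is read in full only when ribosomes shift to the +1 frame, polyamines promote that shift, and the antizyme made binds ornithine decarboxylase and sends it to the proteasome. Ribosomes that do not shift stop early in the reading frame, and Oda has been reported as an NMD target in flies.

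Upf1 was listed at 18.6 and 19.6 TPM in the PR36 libraries, 18.2 and 16.0 TPM in the (G4C2)36 libraries and 11.3 TPM in the UPF1 RNAi library, against 10.3 and 19.1 TPM in the PA36 libraries. The UPF1 RNAi library lay between the PA36 libraries, so the targeted gene does not check that label. All 5 neuronal markers were listed, and they did not move together: in UPF1 RNAi against PA36, elav stood at 58.9 TPM against 31.0 and 62.1 TPM, Syt1 at 403 TPM against 229 and 313 TPM, and nSyb at 420 TPM, the lowest of the 7 libraries, against 609 and 765 TPM. The low markers brp and para ranged from 0.134 to 18.9 TPM and from 0.143 to 12.0 TPM over the 7 libraries. The photoreceptor rhodopsin ninaE was listed at 21034 to 30990 TPM.

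The 6 heat shock genes examined summed to 5978 TPM in PR36 replicate 1 and to 4649 TPM in PA36 replicate 1, but to between 49.6 and 452 TPM in the 5 other libraries. Summed fat body and yolk markers (6 of 6 listed) stood at 59196 to 62342 TPM in PR36, 74022 to 127676 TPM in (G4C2)36, 48741 TPM in UPF1 RNAi and 38749 to 75902 TPM in PA36. The yolk genes Yp1, Yp2 and Yp3 make up most of that sum, and other fat body markers ran differently. The lipid carrier gene apolpp was at 339 and 149 TPM with PR36, 1397 and 1033 TPM with (G4C2)36 and 1919 TPM with UPF1 RNAi, against 949 and 943 TPM with PA36. The storage protein gene Lsp2 was at 23.5 and 77.8 TPM with PR36, 224 and 1425 TPM with (G4C2)36 and 0.931 TPM with UPF1 RNAi, against 26.4 and 25.9 TPM with PA36, and Fbp1 reached 13.4 TPM at most, in (G4C2)36. Summed glial markers (4 of 4) stood at 974 to 1248 TPM in PR36, 1170 to 1256 TPM in (G4C2)36, 702 TPM in UPF1 RNAi and 674 to 718 TPM in PA36. Most of that sum is Gs2, at 869 to 1105 TPM in PR36 and 1043 to 1100 TPM in (G4C2)36 against 563 to 596 TPM in PA36, while repo in both genotypes and alrm in PR36 overlapped PA36. The part of these cell types in the results was not tested. In whole heads, fewer cells of a type and less RNA per cell cannot be told apart.

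The members were tested with limma on log2(TPM + 1) across the 9287 genes whose mean reached 1 TPM, with adjusted p below 0.05 as the threshold. All 4 members were above that mean, and Odc2 (mean 1.14 TPM) only just. Odc2 met the filter only through the UPF1 RNAi library, its highest at 2.56 TPM, while its other libraries ran from 0 to 1.46 TPM. Its place in counts that involve UPF1 RNAi therefore depends on that same value. In PR36 against PA36, 0 of 4 members passed, where 0.194% of all tested genes did. In (G4C2)36 against PA36, 0 of 4 members passed (0.388% of all tested genes), and in UPF1 RNAi against PA36, 0 of 4 (0.625%). At an unadjusted p below 0.05 the limma counts were 0 of 4 for PR36 (3.39% of all tested genes), 1 of 4 (Odc1) for (G4C2)36 (6.75%) and 2 of 4 (Odc1 and Oda) for UPF1 RNAi (6.4%). The values below are therefore descriptions of levels, with the interval each comparison allows. The median log2 fold change over all tested genes was 0.13 for PR36, 0.13 for (G4C2)36 and 0.10 for UPF1 RNAi, so each member's fold change is also given relative to that median.

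**Figure D1:**
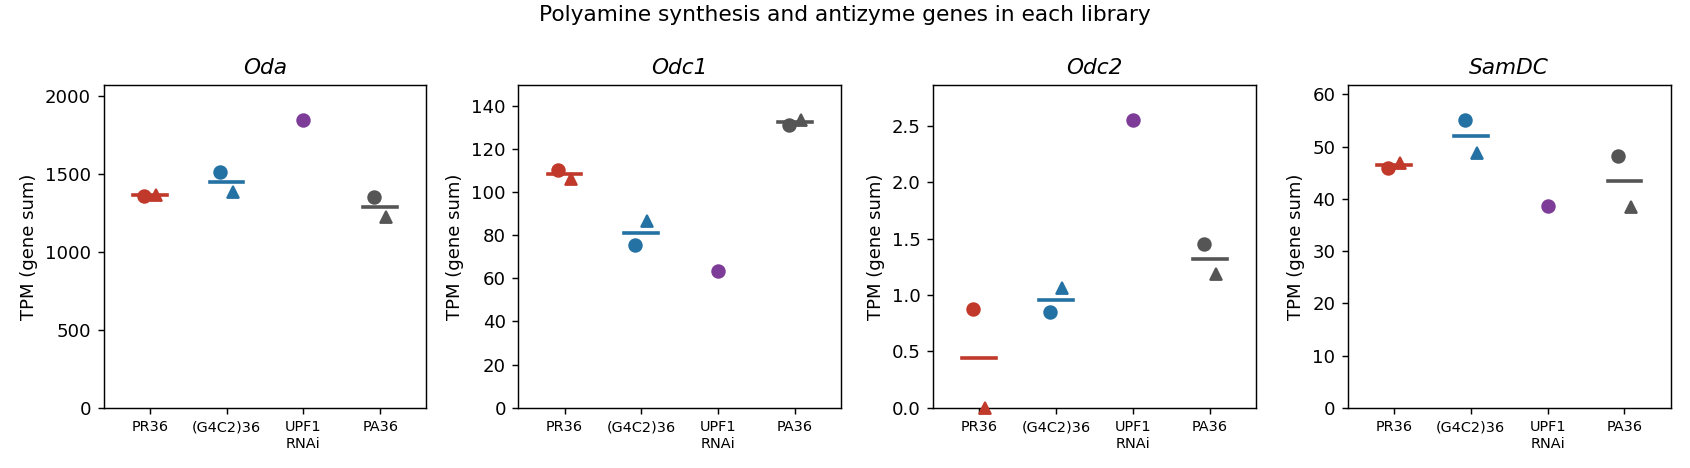
Gene-level TPM (vertical axis, linear from 0) of Oda, Odc1, Odc2 and SamDC in each library, with circles for replicate 1, triangles for replicate 2 and bars for the mean of 2 libraries. Odc1 lay at 63.2 to 110 TPM in the 5 libraries of the other genotypes, below both PA36 libraries at 131 and 134 TPM, while Oda was highest in UPF1 RNAi at 1848 TPM.

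Odc1 (2R, 8004824 to 8006672, plus strand, BDGP6) encodes the ornithine decarboxylase that accounts for nearly all ornithine decarboxylase mRNA in these heads. It stood at 110 and 106 TPM with PR36, 75.4 and 86.5 TPM with (G4C2)36 and 63.2 TPM with UPF1 RNAi, against 131 and 134 TPM with PA36. PA36 was highest, PR36 next, (G4C2)36 below it and UPF1 RNAi lowest, and no library of one genotype overlapped another. This order is that of TPM as deposited. The listed TPM summed to 712972 in UPF1 RNAi and to 877933 and 769828 in (G4C2)36. They summed to 744734 and 821172 in PR36 and to 765526 and 747840 in PA36. Relative to these sums the order need not hold. The steps between PR36 and PA36 and between PR36 and (G4C2)36 were larger than the spread within these genotypes, since the means were 108 ± 2.76 TPM in PR36, 80.9 ± 7.86 TPM in (G4C2)36 and 132 ± 1.73 TPM in PA36 (SD, n = 2 each). An SD from 2 libraries is itself uncertain, and neither step passed by limma, as given below. UPF1 RNAi has no spread of its own.

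On the log2 scale Odc1 differed from PA36 by -0.29 in PR36 (SE 0.19, 95% interval -0.74 to 0.16, limma adjusted p = 0.996), or -0.42 relative to the median of all genes. The difference was -0.71 in (G4C2)36 (SE 0.19, interval -1.15 to -0.26, limma adjusted p = 0.38), or -0.84 relative to the median. In UPF1 RNAi it was -1.05 (SE 0.23, interval -1.60 to -0.51, limma adjusted p = 0.21), or -1.16 relative to the median. The intervals are for 1 gene and are not adjusted for the number of genes, and the lone UPF1 RNAi library is taken to vary like the other genotypes. A log2 fold change at least this low was found for 8.52% of tested genes with PR36, 3.47% with (G4C2)36 and 3.43% with UPF1 RNAi.

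All 5 other libraries lay below both PA36 libraries in 139 of 9287 tested genes (1.5%), and Odc1 is 1 of them. The full order, PA36 above PR36 above (G4C2)36 above UPF1 RNAi with no overlap, was found in 8 genes (0.0861%), among which Odc1 had the highest mean level. This order was looked for after the values of Odc1 were seen. Both counts used TPM as deposited, not values relative to each library's listed sum. Among direct comparisons of the 3 genotypes, 0 of 4 members passed by limma in PR36 against UPF1 RNAi (0.431% of tested genes), in (G4C2)36 against UPF1 RNAi (0.581%) or in PR36 against (G4C2)36 (0.237%). At an unadjusted p below 0.05 these limma counts were 2 of 4 (Odc1 and Odc2), against 6.13% of tested genes, 0 of 4, against 7.49%, and 0 of 4, against 5.25%. Odc2 was tested only because its UPF1 RNAi value lifted its mean over the filter. On the log2 scale, Odc1 was 0.77 higher in PR36 than in UPF1 RNAi (SE 0.23, limma adjusted p = 0.47) and 0.42 higher in PR36 than in (G4C2)36 (SE 0.19, limma adjusted p = 1). In (G4C2)36 against UPF1 RNAi it differed by 0.35 (SE 0.23, interval -0.20 to 0.90, limma adjusted p = 0.98). Neither PA36 replicate 1 nor PR36 replicate 1, the libraries high in heat shock genes, stood apart from its pair in Odc1.

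Odc2 (2R, 8007246 to 8009062, plus strand) lies 573 bases downstream of Odc1 on the same strand and encodes a second ornithine decarboxylase. Both genes have 1 annotated transcript with 6 exons, of 1253 bases in Odc1 and 1268 bases in Odc2. Odc2 was listed at 0.875 and 0 TPM in the PR36 libraries, 0.849 and 1.06 TPM in the (G4C2)36 libraries and 2.56 TPM in the UPF1 RNAi library, against 1.46 and 1.19 TPM in the PA36 libraries. UPF1 RNAi was the highest library and every PR36 and (G4C2)36 library lay below both PA36 libraries. Per length, Odc2 reached between 0 and 4.05% of the Odc1 level of the same library.

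The log2 difference of Odc2 from PA36 was -0.76 in PR36 (interval -1.82 to 0.30, limma adjusted p = 0.996), -0.25 in (G4C2)36 (interval -1.31 to 0.81, limma adjusted p = 0.94) and 0.62 in UPF1 RNAi (interval -0.68 to 1.92, limma adjusted p = 0.96). Relative to the median of all genes these were -0.88, -0.38 and 0.52. PR36 against UPF1 RNAi gave -1.38 (interval -2.68 to -0.08, limma adjusted p = 0.76). Odc2 met the filter only through its UPF1 RNAi value, and PR36 replicate 2 was at 0 TPM. Its intervals that involve UPF1 RNAi therefore carry no weight as tests. The intervals of Odc2 are wider than those of Odc1, and changes in either direction are within them for each comparison with PA36.

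SamDC (2L, 10339457 to 10341503, plus strand) encodes the enzyme that commits S-adenosylmethionine to spermidine and spermine synthesis. It stood at 45.8 and 46.9 TPM with PR36, 55.2 and 48.7 TPM with (G4C2)36 and 38.5 TPM with UPF1 RNAi, against 48.3 and 38.5 TPM with PA36. (G4C2)36 was highest, PR36 lay within the PA36 range and UPF1 RNAi at its lower end. The means of 46.4 ± 0.773 TPM in PR36 and 51.9 ± 4.57 TPM in (G4C2)36 lay within 2 SD of the PA36 mean of 43.4 ± 6.91 TPM (SD, n = 2 each).

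The log2 difference of SamDC was 0.10 in PR36 (interval -0.40 to 0.60, limma adjusted p = 0.996), which turned to -0.025 with median-of-ratios rescaling of the libraries. It was 0.26 in (G4C2)36 (interval -0.24 to 0.76, limma adjusted p = 0.88) and -0.16 in UPF1 RNAi (interval -0.77 to 0.45, limma adjusted p = 0.97). Relative to the median of all genes the 3 values were -0.02, 0.13 and -0.26. Without PA36 replicate 1 the UPF1 RNAi value was 0.00088.

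Oda (2R, 12166295 to 12174264, minus strand) was the most abundant member, ranking between 44 and 113 among all 13656 genes in each library. It has 3 annotated transcripts, all listed, which start at different first exons and share the second exon and the coding part of the third. Oda-RA is 1736 bases long, Oda-RC 1471 bases and Oda-RB 1909 bases, and their 3′ untranslated regions measure 822, 369 and 1103 bases. The stop codon is in the last exon of each, so no exon junction follows it. The annotated coding sequences (763, 811 and 745 bases) leave a remainder of 1 base when divided by 3, as a +1 frameshift requires, whereas those of Odc1, Odc2 and SamDC leave 0. The early stop codon used when ribosomes do not shift is not annotated as such and was not located here.

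**Figure D2:**
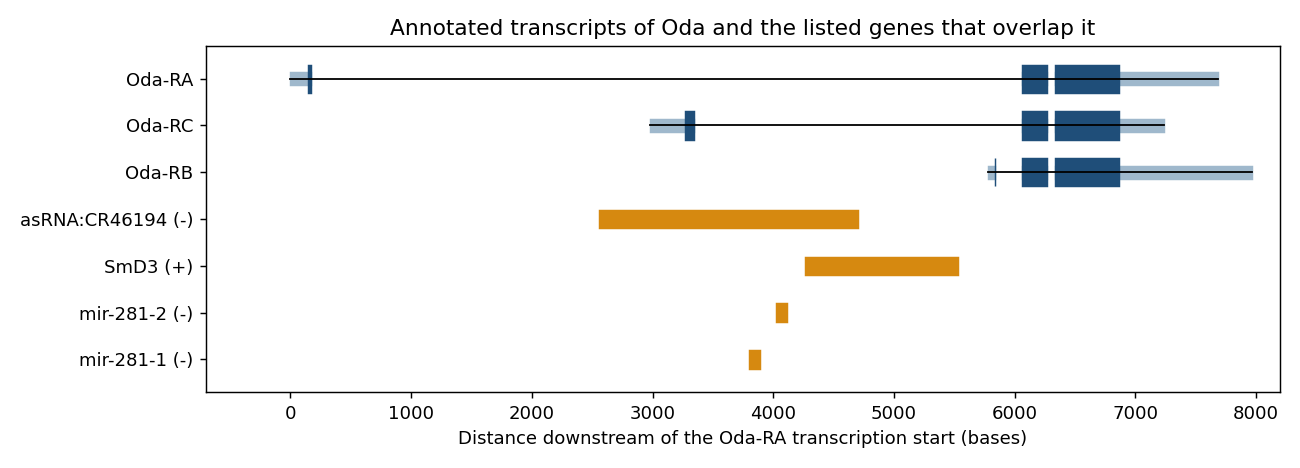
Exons (pale), coding parts (dark) and introns (lines) of the 3 Oda transcripts, and in orange the other listed genes that overlap the locus with their strand, by distance in bases from the Oda-RA start. The transcripts differ in first exon and in the end of the last exon, and both mir-281 precursors lie in an intron of Oda-RA and Oda-RC.

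Oda stood at 1358 and 1365 TPM in the PR36 libraries, 1509 and 1385 TPM in the (G4C2)36 libraries and 1848 TPM in the UPF1 RNAi library, against 1349 and 1223 TPM in the PA36 libraries. All 5 other libraries lay above both PA36 libraries, as in 8.67% of tested genes. This holds for TPM as deposited and need not hold relative to each library's listed sum. UPF1 RNAi was highest, then (G4C2)36, then PR36. The means of 1361 ± 4.94 TPM in PR36 and 1447 ± 87.7 TPM in (G4C2)36, against 1286 ± 89.6 TPM in PA36 (SD, n = 2 each), place PR36 within 1 SD and (G4C2)36 within 2 SD of PA36. PR36 and (G4C2)36 also differed by less than the SD of (G4C2)36.

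The log2 difference of Oda in UPF1 RNAi was 0.52 (SE 0.22, interval 0.003 to 1.05, limma adjusted p = 0.78), or 0.42 relative to the median of all genes, and 12.7% of tested genes had a value at least as high. In (G4C2)36 it was 0.17 (SE 0.18, interval -0.26 to 0.60, limma adjusted p = 0.92), or 0.04 relative to the median. In PR36 it was 0.08 (SE 0.18, interval -0.34 to 0.51, limma adjusted p = 0.996), below the median of 0.13 over all tested genes. The direction turned with median-of-ratios rescaling, to -0.046. Compared directly, the difference of PR36 from UPF1 RNAi was -0.44 (interval -0.96 to 0.08, limma adjusted p = 0.99) and that of (G4C2)36 from UPF1 RNAi -0.35 (interval -0.88 to 0.17, limma adjusted p = 0.96).

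Oda-RA, which starts farthest upstream, held most of the Oda level in every library. It stood at 944 and 945 TPM with PR36, 1119 and 1047 TPM with (G4C2)36 and 1511 TPM with UPF1 RNAi, against 953 and 886 TPM with PA36. UPF1 RNAi was highest and both (G4C2)36 libraries lay above the PA36 pair, while PR36 lay within it. Oda-RC stood at 412 and 416 TPM in the PR36 libraries, 387 and 334 TPM in the (G4C2)36 libraries and 336 TPM in the UPF1 RNAi library, against 395 and 335 TPM in the PA36 libraries. UPF1 RNAi thus lay at the low end of the PA36 range in Oda-RC and above it in Oda-RA. Oda-RA made up 69.5% and 69.3% of the summed Oda level with PR36, 74.1% and 75.6% with (G4C2)36 and 81.8% with UPF1 RNAi, against 70.6% and 72.5% in PA36. No genotype overlapped another in this share, though PR36 and PA36 lay close. How often shares separate like this in other genes was not counted.

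In a limma fit across the 15794 transcripts whose mean reached 1 TPM, 0.639% of transcripts passed in UPF1 RNAi against PA36, and 0 of 3 Oda transcripts did (1 of 3, Oda-RA, had an unadjusted p below 0.05, against 6.82% of transcripts). Oda-RA differed by 0.72 on the log2 scale in UPF1 RNAi (SE 0.18, interval 0.26 to 1.18, limma adjusted p = 0.36), and Oda-RC by -0.12 (SE 0.20, interval -0.64 to 0.41, limma adjusted p = 0.96). In (G4C2)36, where 0.298% of transcripts passed, Oda-RA differed by 0.24 (interval -0.14 to 0.61, limma adjusted p = 0.82). In PR36, where 0.317% passed, it differed by 0.04 (interval -0.34 to 0.41, limma adjusted p = 1), which turned to -0.089 with median-of-ratios rescaling.

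Oda-RB, with the longest 3′ untranslated region, was rare, at most 0.289% of the summed Oda level. It was listed at 2.78 and 3.94 TPM with PR36, 3.57 and 3.78 TPM with (G4C2)36 and 1.19 TPM with UPF1 RNAi, against 1.06 and 1.29 TPM with PA36. All PR36 and (G4C2)36 libraries lay above both PA36 libraries, and UPF1 RNAi lay within the PA36 range. The log2 differences were 0.99 in PR36 (SE 0.32, limma adjusted p = 0.99) and 1.11 in (G4C2)36 (SE 0.32, limma adjusted p = 0.56). Both had an unadjusted limma p below 0.05, as 4.11% of tested transcripts had in PR36 and 6.81% in (G4C2)36. With PR36, every library was higher than PA36 in 2 of 3 Oda transcripts (Oda-RC and Oda-RB), against 25% of tested transcripts, and lower in 0 of 3, against 8.74%. With (G4C2)36 it was higher in 2 of 3 (Oda-RA and Oda-RB), against 23.3%, and lower in 0 of 3, against 10.8%, and with UPF1 RNAi higher in 1 of 3 (Oda-RA), against 43.1%, and lower in 0 of 3, against 26.8%. The transcripts share most of their sequence, so how the authors' program divided reads between them bears on each of these values.

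**Figure D3:**
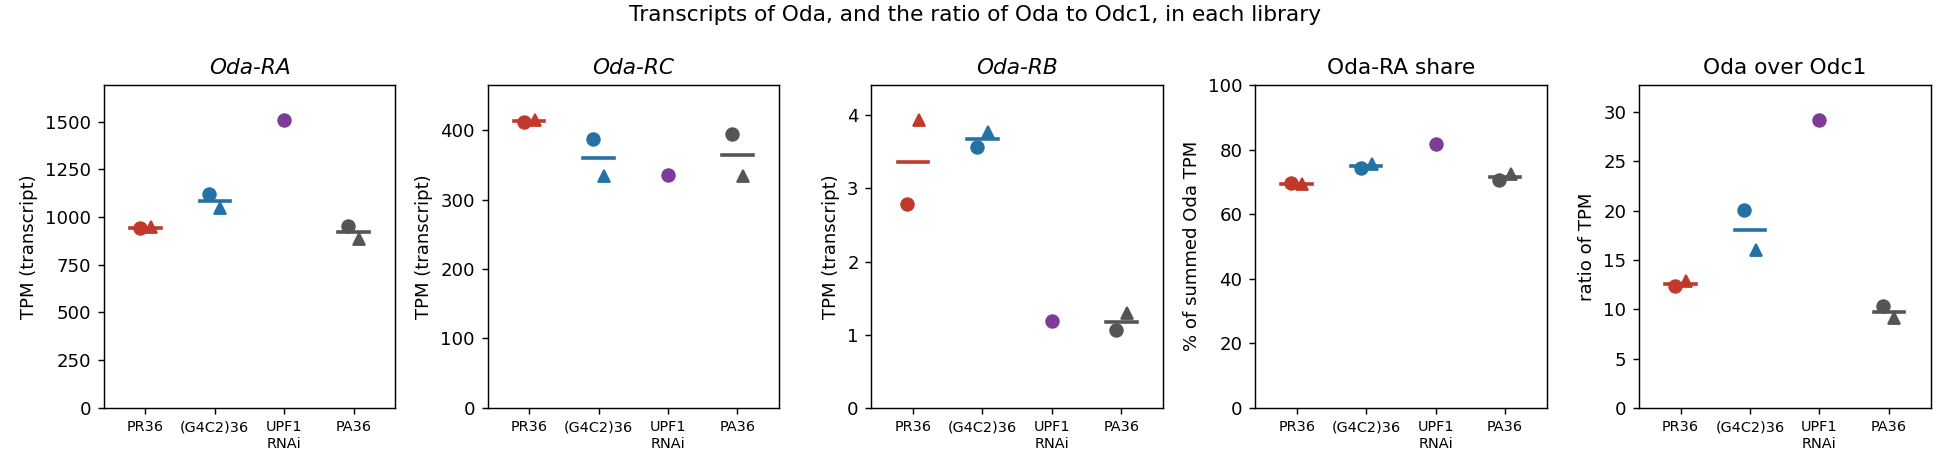
TPM of Oda-RA, Oda-RC and Oda-RB, the share of Oda-RA in the summed Oda level (percent) and the ratio of Oda to Odc1 TPM in each library, with circles for replicate 1, triangles for replicate 2 and bars for the mean of 2 libraries. The Oda-RA share is 81.8% in UPF1 RNAi against 70.6% and 72.5% in PA36, and the Oda to Odc1 ratio is 29.3 in UPF1 RNAi against 10.3 and 9.16 in PA36.

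The Oda locus also holds the microRNA precursors mir-281-1 and mir-281-2 and, on the opposite strand, SmD3, which encodes a core protein of spliceosomal snRNPs. The precursor mir-281-2 (2R, 12170153 to 12170244, minus strand) was listed at 24.9 and 36.9 TPM in the PR36 libraries, 0.0402 and 0.250 TPM in the (G4C2)36 libraries and 0.0212 TPM in the UPF1 RNAi library, against 1.70 and 2.27 TPM in the PA36 libraries. It was higher in PR36 than in PA36 by 3.40 on the log2 scale (SE 0.34, limma adjusted p = 0.017), a call lost with a pseudocount of 0.1 (limma adjusted p = 0.26), without the filter on low values (0.11), and without either (G4C2)36 library (0.058 and 0.061). The precursor mir-281-2 met the filter of 1 TPM only through its PR36 libraries, so this call depends on the values that admitted it. Its neighbour mir-281-1 was listed at 0.0244 and 0.0382 TPM with PR36 and 22.7 and 0.199 TPM with (G4C2)36. It was at 0.0206 TPM with UPF1 RNAi, against 1.37 and 2.42 TPM with PA36. Only (G4C2)36 replicate 1 was high in it. The precursors mir-281-2 (92 bases) and mir-281-1 (90 bases) lie in introns of Oda and give the same family of mature microRNA, and how the authors divided reads between them is unknown. The antisense-named asRNA:CR46194, on the same strand as Oda, was listed at no more than 0.439 TPM. SmD3 stood at 31.0 and 34.4 TPM in the PR36 libraries, 37.5 and 27.8 TPM in the (G4C2)36 libraries and 24.6 TPM in the UPF1 RNAi library, against 29.5 and 37.6 TPM in the PA36 libraries, and did not pass in any of these comparisons. Whether the authors' counting used strand is not given in the sources used here, so reads from overlapping genes cannot be told apart.

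TPM are scaled per length, so levels of the members can be set beside one another within a library. The ratio of Oda to Odc1, antizyme mRNA to that of its target, was 12.3 and 12.9 with PR36, 20.0 and 16.0 with (G4C2)36 and 29.3 with UPF1 RNAi, against 10.3 and 9.16 with PA36. PA36 was lowest, then PR36, then (G4C2)36 and UPF1 RNAi, with no overlap between genotypes. The means were 12.6 ± 0.367 in PR36, 18.0 ± 2.83 in (G4C2)36 and 9.72 ± 0.804 in PA36 (SD, n = 2 each). The ratio was formed after both genes' values were seen and is a description. How often ratios of other gene pairs separate like this was not counted. The ratio of Oda to SamDC was 29.6 and 29.1 in the PR36 libraries, 27.4 and 28.4 in the (G4C2)36 libraries and 48.0 in the UPF1 RNAi library, against 27.9 and 31.8 in the PA36 libraries. In this ratio PR36 lay within the PA36 range, (G4C2)36 in and just under it, and UPF1 RNAi well above it.

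**Figure D4:**
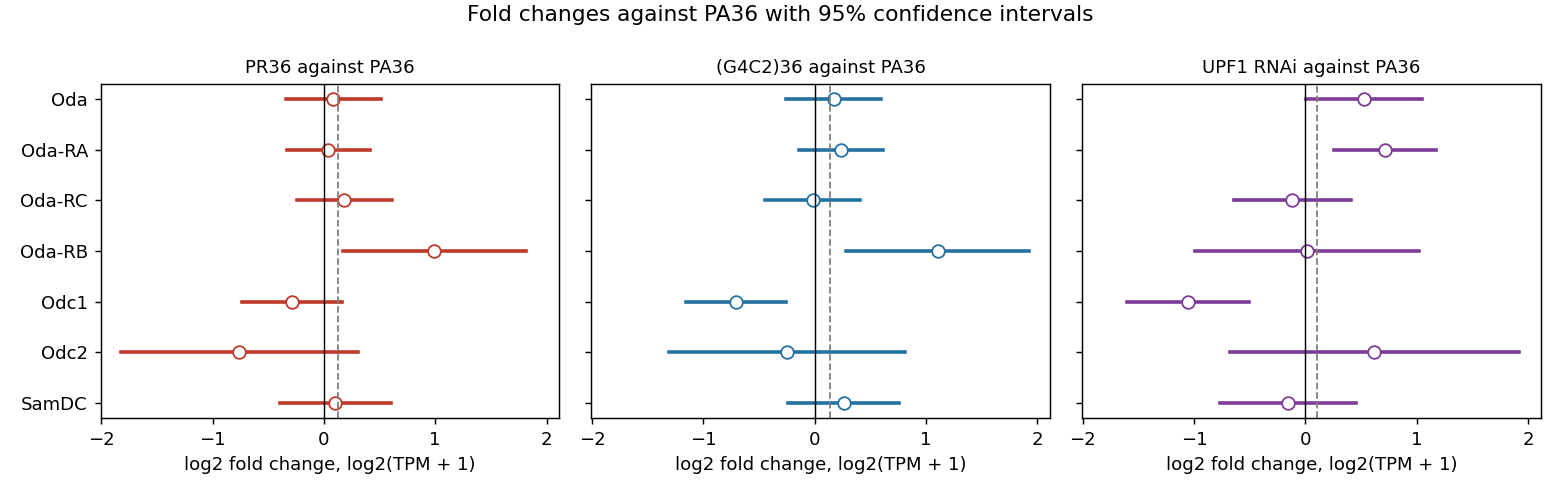
Log2 fold changes (horizontal axis, on the log2(TPM + 1) scale) of the 4 members and the 3 Oda transcripts in PR36, (G4C2)36 and UPF1 RNAi against PA36, with 95% intervals from limma as bars and the median of all genes as a dashed line. Odc1 lies left of 0 in each comparison, at -0.29, -0.71 and -1.05, and open circles mark that no value passed at an adjusted p below 0.05.

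Members that did not overlap between genotypes in TPM as deposited have to be read against how often this happened in all genes. In PR36 every library was higher than PA36 in 1 of 4 members (Oda), against 27% of tested genes, and lower in 2 of 4 (Odc1 and Odc2), against 6.72%. In (G4C2)36 every library was higher in 2 of 4 (Oda and SamDC), against 24.2%, and lower in 2 of 4 (Odc1 and Odc2), against 8.21%. The UPF1 RNAi library was higher than both PA36 libraries in 2 of 4 (Oda and Odc2), against 45%, and lower in 1 of 4 (Odc1), against 25.9%. Set against UPF1 RNAi, PR36 was higher in 2 of 4 (Odc1 and SamDC), against 37.4%, and lower in 2 of 4 (Oda and Odc2), against 31.3%. (G4C2)36 was likewise higher than UPF1 RNAi in Odc1 and SamDC, against 30.7%, and lower in Oda and Odc2, against 25.3%. Odc2 met the filter only through its UPF1 RNAi value, so its part in the counts with UPF1 RNAi carries no weight. PR36 was higher than (G4C2)36 in Odc1, against 13.1%, and lower in Oda and SamDC, against 13.3%.

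Of the other genes of polyamine synthesis, breakdown and the methionine cycle, 20 were listed and tested. In UPF1 RNAi, 1 of 20 fell (Sam-S) and 0 rose by limma, against 0.625% of all tested genes called, and 5 of 20 had an unadjusted p below 0.05, against 6.4%. Of the 20, 7 lay above 0 in UPF1 RNAi and 13 below, with a median log2 fold change of -0.12, against 62.1% of all genes above 0 and a median of 0.10. In PR36, 0 of 20 passed by limma (smallest adjusted p = 0.96; 1 at an unadjusted p below 0.05, against 3.39% of all genes), with 12 above 0 and a median of 0.10, against 72.5% of all genes above 0 and a median of 0.13. In (G4C2)36, 0 of 20 passed by limma (smallest adjusted p = 0.15; 3 at an unadjusted p below 0.05, against 6.75% of all genes), with 11 above 0 and a median of 0.04, against 69% and a median of 0.13. With median-of-ratios rescaling, 5 of 20 lay above 0 in UPF1 RNAi, 10 in PR36 and 9 in (G4C2)36.

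Sam-S, the synthetase that makes S-adenosylmethionine, the substrate of SamDC, stood at 144 and 126 TPM with PR36, 166 and 133 TPM with (G4C2)36 and 15.5 TPM with UPF1 RNAi, against 99.5 and 239 TPM with PA36. The UPF1 RNAi library was far below all others. The log2 fold change was -3.23 (SE 0.48, limma adjusted p = 0.043), and the call was lost with a pseudocount of 0.1 (adjusted p = 0.052), with median-of-ratios rescaling (0.075), without the filter on low values (0.17) and without either (G4C2)36 library (0.17 each). Of 12 reference transcripts of Sam-S, 10 are listed, and the PA36 libraries divided its level differently: Sam-S-RJ was at 0.0348 TPM in PA36 replicate 1 and at 111 TPM in replicate 2.

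Spermidine synthase (SpdS), which acts just after SamDC, stood at 116 and 100 TPM in the PR36 libraries, 145 and 116 TPM in the (G4C2)36 libraries and 142 TPM in the UPF1 RNAi library, against 150 and 108 TPM in the PA36 libraries, and the genotypes overlapped. Ahcy, which clears S-adenosylhomocysteine, stood at 121 and 114 TPM with PR36, 86.0 and 76.8 TPM with (G4C2)36 and 60.8 TPM with UPF1 RNAi, against 100 and 113 TPM with PA36. (G4C2)36 and UPF1 RNAi lay below PA36 in Ahcy and PR36 above it, with log2 fold changes of 0.14 in PR36 (limma adjusted p = 0.996), -0.38 in (G4C2)36 (limma adjusted p = 0.83) and -0.79 in UPF1 RNAi (limma adjusted p = 0.45). Arginase (arg), which yields ornithine and was singled out after its values were seen, stood at 11.9 and 8.12 TPM in the PR36 libraries, 16.2 and 14.9 TPM in the (G4C2)36 libraries and 1.20 TPM in the UPF1 RNAi library, against 5.55 and 3.09 TPM in the PA36 libraries. PR36 and (G4C2)36 lay above PA36 and UPF1 RNAi below it, but none of the 3 comparisons with PA36 passed (limma adjusted p = 0.96, 0.15 and 0.53).

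**Figure D5:**
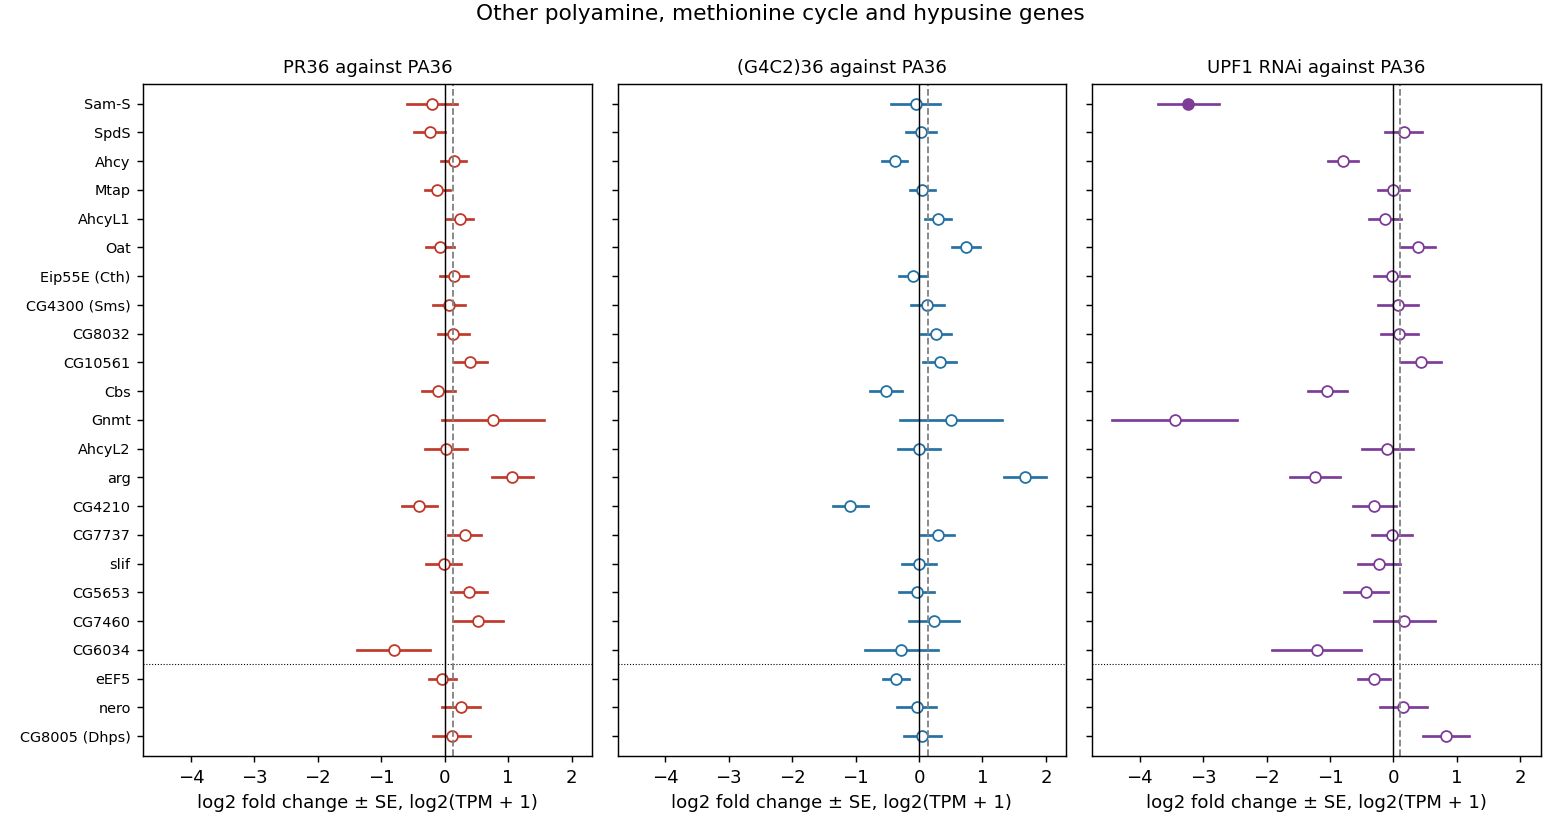
Log2 fold changes against PA36 with SE (horizontal axis, on the log2(TPM + 1) scale) of 20 other polyamine and methionine cycle genes and, under the dotted line, 3 hypusine genes, sorted by mean level, with the median of all genes as a dashed line. The filled point marks Sam-S in UPF1 RNAi at -3.23, the 1 value that passed at an adjusted p below 0.05.

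Spermidine is also the source of hypusine, a modified lysine made in the translation factor eEF5 (eIF5A) by deoxyhypusine synthase (CG8005 in the table, Dhps) and deoxyhypusine hydroxylase (nero). Of these 3 genes, 0 passed by limma in PR36 (smallest adjusted p = 0.996), in (G4C2)36 (0.84) or in UPF1 RNAi (0.79). Of all tested genes, 0.194%, 0.388% and 0.625% passed. At an unadjusted limma p below 0.05 the count was 0 in each, against 3.39%, 6.75% and 6.4% of tested genes. eEF5 stood at 1328 and 1267 TPM with PR36, 1171 and 915 TPM with (G4C2)36 and 1073 TPM with UPF1 RNAi, against 1441 and 1226 TPM with PA36. Both (G4C2)36 libraries lay below PA36, as in 8.21% of tested genes, and so did UPF1 RNAi, as in 25.9%. PR36 lay within the PA36 range. CG8005 stood at 8.23 and 7.45 TPM in the PR36 libraries, 8.29 and 6.70 TPM in the (G4C2)36 libraries and 13.5 TPM in the UPF1 RNAi library, against 5.60 and 9.15 TPM in the PA36 libraries, so the UPF1 RNAi library was the highest. The hydroxylase gene nero stood at 17.8 and 24.9 TPM with PR36, 21.5 and 13.3 TPM with (G4C2)36 and 19.6 TPM with UPF1 RNAi, against 15.4 and 19.7 TPM with PA36, and its genotypes overlapped.

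Among the tested genes, likeness to a member was measured as the correlation of log2(TPM + 1) over the 7 libraries, which share their scaling, and is given as a description. The genes most like Oda were APC4 (0.987), pen-2 (0.985) and mRpL53 (0.970), all highest in UPF1 RNAi. Those most like Odc1 were snoRNA:U27:54Eb (0.938), CG8785 (0.928) and ab (0.920). Those most like Odc2 were CG31344 (0.959), CG32017 (0.935) and CR45469 (0.934), and those most like SamDC were CG14591 (0.990), Gapdh1 (0.986) and Gdh (0.977), all of which were highest in (G4C2)36 replicate 1.

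Arc1, Gadd45 and tra are the other reported NMD targets examined. Arc1 was higher in PR36 (log2 fold change 2.44, limma adjusted p = 0.017) and in (G4C2)36 (1.83, limma adjusted p = 0.032), with 1.20 in UPF1 RNAi (limma adjusted p = 0.26). Gadd45 was higher in UPF1 RNAi (2.64, limma adjusted p = 0.023), with 1.15 in PR36 (limma adjusted p = 0.47) and 0.85 in (G4C2)36 (limma adjusted p = 0.53). For tra the values were 0.05 for PR36, 0.06 for (G4C2)36 and 0.82 for UPF1 RNAi (limma adjusted p = 0.996, 0.98 and 0.66), beside 0.08, 0.17 and 0.52 for Oda. Differences between these genes were not tested.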

How the data were processed

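Per the submitters' processing notes, bcl2fastq, HISAT2 2.1 and HISAT were used with genome build BDGP6. The quantifier, its annotation and its strand setting are not given in these notes or the labels. The authors deposited TPM per transcript in 1 table whose header holds 10 names over lines of 11 cells. Names were matched from the left, which left 1 unnamed value column out and gave UPF1 RNAi 1 library; its second was not analysed here. Each library's identity depends on this match. TPM carry no read number: depth is unknown and no interval for counting error was made.

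TPM were summed per gene and tested as log2(TPM + 1), which understates fold changes of low genes, with limma 3.58.1 in R 4.3.3. The fit had one coefficient per genotype over 7 libraries and a trend (3 residual and 4.1 prior degrees of freedom). Tests were two-sided with Benjamini-Hochberg adjustment, in 6 contrasts of genes and 3 of transcripts, and intervals are at 95%. The fit was run on simulated data with independent normal noise, to check that it recovered fold changes that had been put in. The simulated data held no heat shock or other shared difference between libraries, so they do not check error rates here. Coordinates and structures come from Ensembl's annotation of BDGP6, which holds 99.4% of the listed transcripts.

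Named genes are the members, the called and the 3 most abundant genes of each pathway list, the 3 genes most like each member, overlapping genes, Upf1 and other reported NMD targets. The gene arg was named after its values were seen. Members and lists were chosen with earlier results of these data known. Over the 7 libraries, other summed markers were 23709 to 33587 TPM (photoreceptors), 879 to 1241 TPM (neurons), 846 to 2157 TPM (muscle, highest in (G4C2)36), 80.4 to 219 TPM (hemocytes) and 0.826 to 16.0 TPM (gut). Ovary markers were not used here. Alternatives were another pseudocount, no filter, median-of-ratios rescaling, a replicate block and leaving out each library.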

Additional observations from a re-analysis of the deposited data

Results flagged for a closer look

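In 4 comparisons between genotypes other than PA36, the difference itself passed for a gene of the pathway or of the Oda locus. The precursor mir-281-2 was higher in PR36 than in UPF1 RNAi by 4.94 on the log2 scale (SE 0.42, limma adjusted p = 0.0046) and higher in PR36 than in (G4C2)36 by 4.78 (SE 0.34, limma adjusted p = 0.0021), with 24.9 and 36.9 TPM in PR36. The first call rests on 1 UPF1 RNAi library, and both depend on the PR36 values through which mir-281-2 met the filter. For the second, mir-281-1 went the other way, at 22.7 TPM in (G4C2)36 replicate 1 against 0.0244 and 0.0382 TPM in PR36. How reads were divided between the 2 precursors is unknown, and their sum was not tested. Sam-S was higher in (G4C2)36 than in UPF1 RNAi by 3.18 (limma adjusted p = 0.048), with 166 and 133 TPM in (G4C2)36 against 15.5 TPM in UPF1 RNAi. The arginase gene arg was higher in (G4C2)36 than in UPF1 RNAi by 2.91 (SE 0.40, limma adjusted p = 0.031), with 16.2 and 14.9 TPM in (G4C2)36 against 1.20 TPM in UPF1 RNAi. Both of these last calls rest on 1 UPF1 RNAi library and were lost without the filter on low values (limma adjusted p = 0.16 for Sam-S and 0.11 for arg), with median-of-ratios rescaling (0.098 and 0.11) and without either (G4C2)36 library (0.26 and 0.21 for Sam-S, 0.17 and 0.16 for arg). The Sam-S call was also lost with a pseudocount of 0.1 (limma adjusted p = 0.059). No group holds 4 libraries, so none was examined for a single library that stands apart.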

How the results depend on the processing

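Over 381 alternative values for the members and the Oda transcripts, none passed by limma, and the direction of Odc1 against PA36 held in each. Counts over all genes moved more. For genes the prior degrees of freedom also moved, from 4.1 to 1.5 with no filter and to 8.66 with a replicate block. The cause of the moving counts was not tested. Genes called in PR36 against PA36 numbered 18, against 7 with no filter and 33 with a replicate block. In (G4C2)36 against PA36 they numbered 36, against 57 with the block. No filter gave 65 in PR36 against UPF1 RNAi (40 otherwise) and 88 in (G4C2)36 against UPF1 RNAi (54 otherwise), and the block gave 87 in that comparison and 44 in PR36 against (G4C2)36 (22 otherwise). Transcripts called numbered 50 for PR36, 47 for (G4C2)36 and 101 for UPF1 RNAi against PA36, but 7, 0 and 5 with the block, and 81 in (G4C2)36 and 396 in UPF1 RNAi with no filter. Over the tested genes, deviations of same-numbered libraries correlated at -0.08 (PR36 and (G4C2)36), 0.10 (PR36 and PA36) and -0.07 ((G4C2)36 and PA36). PR36 replicate 1 and PA36 replicate 1 were still both high in heat shock genes. Whether same-numbered libraries shared their handling was not tested. Leaving out PA36 replicate 1 and PR36 replicate 1 together, chosen after seeing the data, gave 198, 288 and 243 genes for PR36, (G4C2)36 and UPF1 RNAi set against PA36, 261 and 338 in PR36 and (G4C2)36 against UPF1 RNAi, 245 in PR36 against (G4C2)36, and 0 transcripts in each comparison. Leaving out single libraries gave 13 to 57, 22 to 86 and 39 to 93 genes against PA36, 28 to 74 and 36 to 107 against UPF1 RNAi, 21 to 68 in PR36 against (G4C2)36, and 0 to 52, 0 to 51 and 0 to 24 transcripts. No value was possible for UPF1 RNAi without its 1 library.

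Directions turned as follows. With median-of-ratios rescaling, the log2 fold change in PR36 was -0.046 for Oda, -0.025 for SamDC and -0.089 for Oda-RA, and that of Oda-RB in UPF1 RNAi was -0.042. The block gave -0.023 for mir-281-2 in (G4C2)36 against UPF1 RNAi. Without the 2 heat shock libraries, UPF1 RNAi values were 0.00088 for SamDC, -0.065 for Oda-RB and 0.0038 for Oda-RC, and Oda-RC in (G4C2)36 was 0.10. Without single libraries, SamDC ran from -0.057 to 0.26 in PR36 and from -0.32 to 0.00088 in UPF1 RNAi. Oda-RA ran from -0.013 to 0.091 in PR36, Oda-RC from -0.14 to 0.10 in (G4C2)36 and from -0.24 to 0.0038 in UPF1 RNAi, and Oda-RB from -0.065 to 0.090 in UPF1 RNAi. Sam-S ran from -0.83 to 0.43 in PR36 and from -0.68 to 0.57 in (G4C2)36, and in PR36 against (G4C2)36 from -0.31 to 0.016.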
